A study of Mus musculus with 336 samples.

Results

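The 10 genes described here handle metal in the cell and iron in the body: the metallothioneins Mt1 and Mt2, the hepcidins Hamp and Hamp2, the transferrin receptor Tfrc, transferrin (Trf), the iron exporter ferroportin (Slc40a1), the ferritin heavy and light chains (Fth1 and Ftl1) and the zinc and iron importer Slc39a14. They were chosen by name, with earlier results of these data known. All 10 have a value in each of the 3 deposited tables, which list 47633, 47632 and 47631 genes. The series sequenced mRNA from C57BL/6 mouse cells and liver, either wild type (WT) or Bmal1-/- (KO), and so lacking the transcription factor BMAL1 of the circadian clock. Skin fibroblasts in confluent culture and adult liver kept ex vivo as slices of about 500 micron received 100 nM dexamethasone, a synthetic glucocorticoid that sets the phase of cellular clocks, for 15 min. They were harvested from 48 h later, every 3 h for 3 days (CT00 to CT69), which gives 24 libraries per genotype and tissue with 1 value per gene at each time point. A short course of mouse liver has 3 replicates per genotype at T00, T06, T12 and T24, numbered in hours.

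All groups share the dexamethasone step, the labels name no untreated group, and the interval from dexamethasone to T00 of the short course is not given. The labels do not say whether the numbered replicates of the short course are separate animals, so p-values reflect how these samples scatter, and that scatter may be technical. Nor do they say how many mice or cell lines stand behind each genotype, which makes genotype and origin impossible to tell apart in the fibroblasts and in the slices. In these 3-day courses the p-values reflect scatter between time points. Of the 336 sequencing runs, 1 run of KO T00 replicate 3 carries the time tag T06, while its title, source and description say T00, and it was kept at T00.

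Metallothioneins are small cysteine-rich proteins that bind zinc and copper, and their genes respond to zinc through the transcription factor MTF1 and to glucocorticoids and inflammatory cytokines. Hepcidin is a peptide hormone of the hepatocyte that makes ferroportin disappear from the cell surface and so keeps iron inside cells; BMP signalling through SMAD factors and interleukin-6 through STAT3 raise its transcription. Transferrin carries iron in plasma and TFRC takes it up. Iron regulatory proteins bind hairpins called iron-responsive elements, which stabilise Tfrc mRNA and block translation of ferritin and ferroportin mRNA when iron is short.

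The promoters of the metallothioneins are shown first, because both genes moved furthest of the 10 in the short course. MTF1 binds metal-responsive elements with the core TGCGCNC or TGCACNC, and capitals mark every match on either strand. The sequences are from RefSeq, build GRCm38.p6, plus strand, 5′ to 3′. Mt2 (chr8:94172664-94173568) and Mt1 (chr8:94179082-94180327) lie side by side in that order, and both are protein-coding.
Mt2, bases before the start (chr8:94172368-94172617): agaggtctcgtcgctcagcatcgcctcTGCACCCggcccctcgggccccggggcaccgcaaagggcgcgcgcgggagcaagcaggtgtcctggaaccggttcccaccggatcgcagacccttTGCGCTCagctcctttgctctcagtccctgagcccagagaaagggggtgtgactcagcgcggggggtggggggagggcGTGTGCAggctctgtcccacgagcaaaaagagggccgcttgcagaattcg
Mt1, bases before the start (chr8:94178839-94179081): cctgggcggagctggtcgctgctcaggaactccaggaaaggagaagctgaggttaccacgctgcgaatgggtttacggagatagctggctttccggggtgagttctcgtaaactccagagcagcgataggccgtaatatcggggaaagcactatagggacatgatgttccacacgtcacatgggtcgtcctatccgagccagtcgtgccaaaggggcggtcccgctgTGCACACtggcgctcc
Mt1, first bases after the start (chr8:94179089-94179118): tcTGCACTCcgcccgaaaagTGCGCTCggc
In the window of 250 bases before to 50 after the RefSeq start, Mt2 held 4 matches and Mt1 held 3. At least 3 matches were found in 1.97% of the 32851 mouse promoter windows of that length, at least 4 in 0.517% and at least 1 in 25.7%. Of the 7 genes with a RefSeq window (9 windows, as a gene can have more than 1), Tfrc was the other one with a match, with 2 in one of its windows. The Mt2 stretch overlaps an exon of the antisense gene Gm45774. A match is a description of letters, not a measured binding site. The starts are the annotated ones, where transcription begins was not measured, and matches outside the windows were not counted. The clock's E-box CACGTG, present in 7.15% of all windows, was found in 0 of the 9.

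The hepcidin promoters are shown because the 2 genes are close copies whose levels are compared between genotypes. Both lie on the minus strand of chromosome 7, Hamp at chr7:30942368-30944032 and Hamp2 at chr7:30922372-30924681. Capitals mark, in order, the BMP-responsive element and the STAT site TTCNNNGAA.
Hamp promoter (chr7:30944059-30944168): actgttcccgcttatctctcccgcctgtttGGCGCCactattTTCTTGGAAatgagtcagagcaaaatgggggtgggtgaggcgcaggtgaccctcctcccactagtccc
Hamp2 promoter (chr7:30924208-30924317): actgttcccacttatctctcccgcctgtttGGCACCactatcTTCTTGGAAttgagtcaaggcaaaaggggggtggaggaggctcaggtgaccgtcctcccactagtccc
Of 110 aligned bases, 99 were the same (90.0%) and 11 differed. The STAT site is the same in both, 97 bases before the Hamp start and 94 before the Hamp2 start. The BMP element has the substitution G4A in Hamp2, counted from 1 at the 5′ end of the Hamp element, so the GGCGCC found in 11.9% of all promoter windows is in Hamp and not in Hamp2. TTCNNNGAA was found in 8.3% of windows.

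The iron-responsive elements tie 4 of the 10 genes to cellular iron after transcription, and they are shown because the RNA of Tfrc, and the translation rather than the RNA of the other 3, is known to follow them. On GRCm38, Tfrc lies at chr16:32608920-32632794 and Fth1 at chr19:9980598-9985098 on the plus strand, and Slc40a1 at chr1:45908068-45926523, Ftl1 at chr7:45457944-45459884, Trf at chr9:103204001-103230444 and Slc39a14 at chr14:70303469-70351425 on the minus strand, all protein-coding. Capitals mark the 6-base loop CAGTGN, with 5 pairing stem bases around it (GRCm38 with GENCODE M21).
Tfrc 3′ UTR, first site (chr16:32631219-32631248, plus strand): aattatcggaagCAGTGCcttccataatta
Tfrc 3′ UTR, another site (chr16:32631598-32631627, plus strand): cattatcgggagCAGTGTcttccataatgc
Tfrc 3′ UTR, another site (chr16:32631663-32631692, plus strand): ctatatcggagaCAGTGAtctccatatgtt
Tfrc 3′ UTR, last site (chr16:32631710-32631739, plus strand): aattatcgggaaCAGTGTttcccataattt
Slc40a1 5′ UTR (chr1:45925464-45925493, minus strand): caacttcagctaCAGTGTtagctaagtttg
Fth1 5′ UTR (chr19:9982732-9982761, plus strand): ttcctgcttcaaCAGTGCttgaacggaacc
Ftl1 5′ UTR (chr7:45459778-45459807, minus strand): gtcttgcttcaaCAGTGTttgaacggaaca
Such a hairpin was found in the 5′ UTR of 31 of 20580 genes (0.151%), 3 of them in this set, and in the 3′ UTR of 129 of 20978 genes (0.615%), of which Tfrc is one.

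Values are FPKM as deposited (fragment counts divided by transcript length and by a measure of library size). Which measure of library size the authors applied is unknown. The values are corrected for transcript length, so levels of different genes can be set side by side, but they keep no read depth. The fibroblast table also holds a lower and an upper bound that the authors deposited with each value, and how these were computed is not given in the sources used here. Tests were run on log2(FPKM + 1), which understates the change of low genes, with limma across all genes and Benjamini-Hochberg adjustment. A gene is called at an adjusted p below 0.05, and for genotype in the 3-day courses only if the difference was also at least 1 on the log2 scale. The summed FPKM of a library ran from 479770 to 2121562 over the 3 tables. Arntl, the symbol of Bmal1, was lower in every KO fibroblast library (5.67 to 7.84 FPKM against 8.79 to 11.9), but the groups overlapped in the slices (medians 4.07 against 4.32) and in the short course (2.32 against 1.38). A value per gene can come from reads outside the deleted part and so does not check the labels. Nr1d1, a known target of BMAL1, was lower in KO with no overlap in all 3 tables, with medians of 12.8 against 4.6 FPKM in fibroblasts, 15.1 against 3.27 in slices and 38.6 against 1.07 in the short course. Dbp, another such target, was lower in KO with no overlap in slices (4.49 against 0.794) and in the short course (26.1 against 1.08), but overlapped in fibroblasts (7.39 against 6.42).

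The liver tables carried hepatocyte genes and the fibroblasts did not. The sum of 7 hepatocyte genes without Alb, which is listed at 0 in 6 short-course libraries and 1 slice library, fell from 16675 to 20366 FPKM at T00 to 5289 to 6468 at T24 in WT liver. In KO liver it went from 12853 to 17969 down to 2040.6 to 6111. In the slices the sum had medians of 3728 in WT and 5336 in KO, while 8 macrophage genes summed to a median of 518.6 in WT and 77.8 in KO. In bulk samples such as these, fewer cells of a type and less RNA per cell cannot be told apart. In fibroblasts the hepatocyte sum was at most 3.2. Xist, transcribed from the inactive X chromosome of females, was at most 2.16 FPKM in any library of the 3 tables, and the Y-linked Ddx3y was at least 12.3 in every one. Both are given because Hamp2 is known to be higher in livers of female mice.

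In the short course both metallothioneins rose from low levels to rank among the most abundant of the 10 genes, in both genotypes. Mt1 in WT was 72.2, 53.6 and 56.7 FPKM at T00, 2254, 2928 and 2690.5 at T06, 4952, 4918 and 6898 at T12, and 5214, 5562 and 4072 at T24. In KO it was 256, 197 and 60.6 at T00, 1587, 2810.4 and 1568 at T06, 3818, 2537 and 2983 at T12, and 2957, 848 and 2053 at T24. All later samples of both genotypes lay above all T00 samples, and at T12 and T24 every KO sample lay below every WT sample. The largest rise was at T12 in both: 6.49 ± 0.44 (SE) on the log2 scale in WT, 90-fold (adjusted p = 2.35e-09), and 4.39 in KO, 21-fold (adjusted p = 4.22e-07).

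Mt2 repeated this pattern from a lower start. Its WT values were 19.3, 14.1 and 11.4 FPKM at T00, 1979, 2626 and 2336 at T06, 3814, 4003 and 4813.5 at T12, and 3450.1, 3628 and 2316 at T24. The KO values were 64.5, 77.0 and 15.3, then 1434, 2538 and 1469.8, then 2712, 2322 and 2244, and finally 2227, 741 and 1530.3. As for Mt1, KO lay below WT without overlap at T12 and T24. At T12 the rise was 269.1-fold in WT (8.07 ± 0.45, adjusted p = 2.25e-10) and 55.4-fold in KO (5.79, adjusted p = 1.32e-08). The ratio of Mt1 to Mt2 had a median of 1.47 in WT and 1.33 in KO over the 12 samples of each. KO replicate 2 at T24 held the lowest T24 value of Mt1, Mt2, Hamp, Trf and Slc39a14, and its hepatocyte sum was also the lowest of that table at 2040.6.

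**Figure D1:**
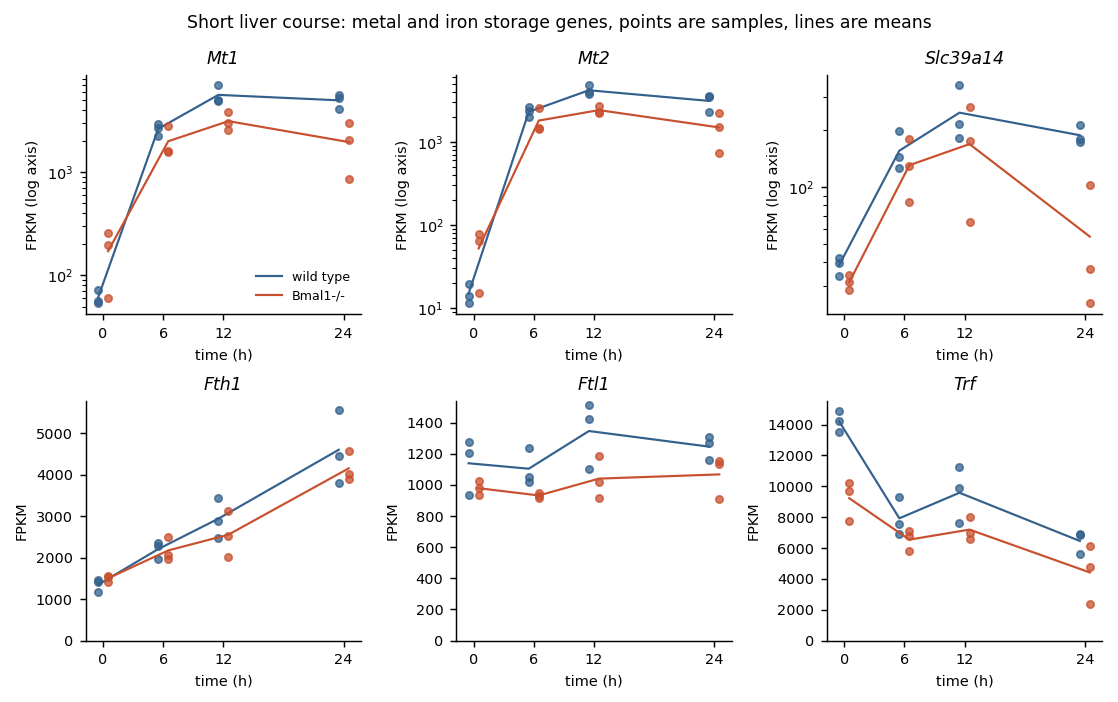
FPKM (vertical axis, logarithmic for Mt1, Mt2 and Slc39a14) against time in hours for 6 genes of the short liver course, with WT in blue and Bmal1-/- in orange; points are the 3 samples of a group and lines join group means. Mt1 and Mt2 climb from T00 to T12 in both genotypes and the orange points sit below the blue ones at T12 and T24, while Fth1 rises with both genotypes mixed.

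Slc39a14, which brings zinc and non-transferrin-bound iron into hepatocytes, also rose, and then parted by genotype. In WT it was 42.4, 39.5 and 34.1 FPKM at T00, 126, 198 and 143 at T06, 182, 344 and 215 at T12, and 178, 212 and 173 at T24. In KO it was 34.2, 28.6 and 31.4, then 83.0, 179 and 129, then 265, 65.8 and 175, and at T24 103, 24.3 and 36.9. WT stayed high at T24, whereas 2 of the 3 KO samples were near their T00 level, with all 3 below WT. The rise over T00 reached 6.05-fold at T12 in WT and 4.53-fold at T12 in KO (adjusted p = 0.000362 and 0.000616 over the 3 times). At T24 the KO difference from T00 was 0.52 on the log2 scale (adjusted p = 0.326 at that time). KO was 4.06-fold below WT at T24 (-2.02 ± 0.46, adjusted p = 0.00666), a call lost without KO replicate 3 (adjusted p = 0.0571).

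The other zinc genes of a list of 21 moved both ways. In WT 9 of the 19 that could be tested rose and 7 fell over the short course, and in KO 5 rose and 8 fell, where 64.4% of all tested genes were called in WT and 72.2% in KO, in either direction. The counts of the next lists are to be read against the same shares. The zinc importer Slc39a6 rose from 0.588 to 7.12 FPKM between T00 and T24 in WT and from 0.622 to 11.2 in KO, and the exporter Slc30a4 from 1.93 to 7.35 and from 2.5 to 9.05 (group means, n = 3). Slc39a11 fell from its T00 level by 1.41 on the log2 scale in WT, and Slc30a10, a manganese exporter, fell from 10.4 to 0.875 FPKM in KO. For a time course that differs between genotypes limma called 1 of the 19, Slc30a10 (1.75% of all genes), a fragile call described below. Genes that respond to glucocorticoids moved in the same samples. Of 10 such genes, 6 rose and 1 fell in WT, and 6 rose and 2 fell in KO, and among them Cebpd rose by 3.18 in WT and 3.05 in KO. Of 10 acute-phase genes 3 rose and 2 fell in WT and 3 rose and 3 fell in KO, and of 9 hypoxia genes 6 rose and 1 fell in WT and 4 rose and 4 fell in KO. Markers of bile duct cells rose as well, 5 of 5 in each genotype, with a sum of 35.9 to 99.3 FPKM at T00 and 301.4 to 663.4 at T06 in WT. The part of these in the metallothionein values was not tested.

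The hepcidins did not follow the metallothioneins. Hamp in WT was 475, 1763 and 1808 FPKM at T00, 507, 1878 and 1367 at T06, 816, 2260.0 and 2323 at T12, and 1001, 2706 and 1119 at T24. Replicate 1 was the lowest of the 3 at all 4 times, and the groups overlapped at every pair of times. Its largest WT difference from T00 was 0.5 on the log2 scale, and no change was called (adjusted p = 0.771 over the 3 times). In KO Hamp was 1929, 2289.8 and 1928 at T00, 1215, 1653 and 1857 at T06, 1052, 868 and 1376 at T12, and 503, 269.8 and 1083 at T24. Here the T06, T12 and T24 samples all lay below the T00 samples. The fall at T24 was 3.86-fold (-1.95 ± 0.59, adjusted p = 0.00715), and without KO replicate 2 it was -1.38 and was not called (adjusted p = 0.122).

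Hamp2 was high in KO liver at every time. The WT values were 32.9, 95.4 and 29.3 FPKM at T00, 16.3, 62.9 and 30.2 at T06, 13.9, 33.7 and 24.6 at T12, and 10.9, 32.2 and 7.95 at T24. The KO values were 227, 504 and 775, then 103, 333 and 388, then 113, 202 and 375, and at T24 41.5, 71.5 and 213. At none of the 4 times did the groups overlap, with KO replicate 1 the lowest KO sample each time. Hamp2 made up 4.4% of the summed hepcidin FPKM in WT at T00 and 0.985% at T24, against 19.1% and 15% in KO. The mean KO difference over the 4 times was 2.94 ± 0.36 on the log2 scale, 7.7-fold (adjusted p = 1.23e-05), and it was called in every alternative tried. Within KO, Hamp2 fell 5.14-fold from T00 to T24 (-2.36 ± 0.72, adjusted p = 0.00743), a call lost without KO replicate 2 (-2.14, adjusted p = 0.0712). In WT the T24 difference of -1.6 was not called (adjusted p = 0.0625). At 50 bases, the read length, 16.6% of the positions in Hamp transcripts were shared with another gene, all with Hamp2. In Hamp2 transcripts 19.5% were shared, with 2 other genes, and 11.2% with Hamp. A part of the reads of the pair could therefore not be told apart.

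**Figure D2:**
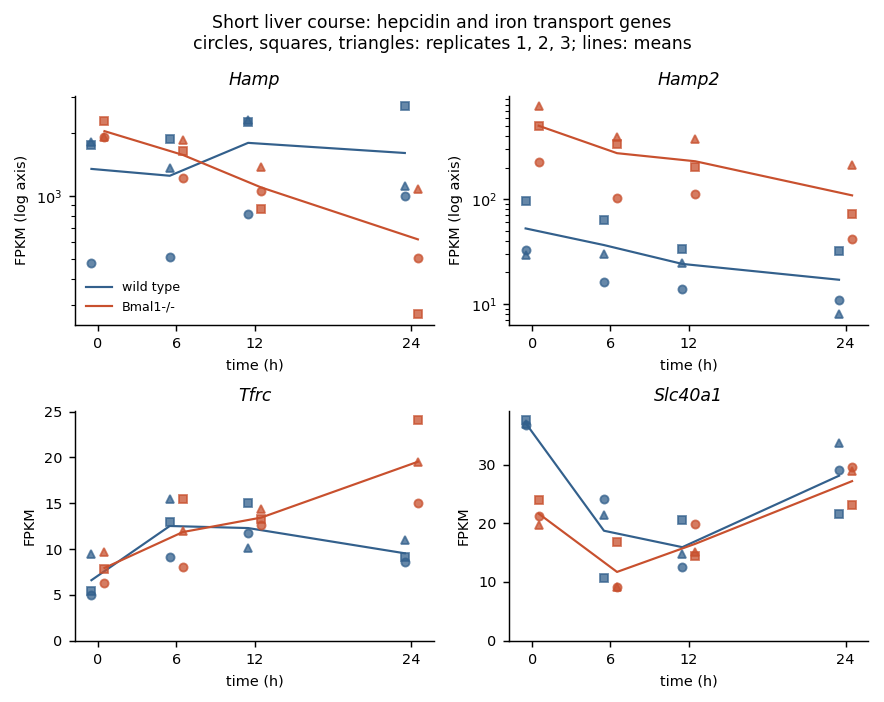
FPKM (vertical axis, logarithmic for Hamp and Hamp2) against time in hours for 4 genes of the short liver course, WT in blue and Bmal1-/- in orange, with circles, squares and triangles for replicates 1, 2 and 3 and lines for group means. Hamp2 is higher in all Bmal1-/- samples at each time, whereas the Hamp samples of the genotypes mix from T06 on.

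Among 21 tested genes that control hepcidin, 13 rose and 6 fell over the short course in each genotype, where 64.4% of all tested genes were called in WT and 72.2% in KO. Hfe2, which encodes the BMP co-receptor hemojuvelin, fell from 16.7 to 1.97 FPKM in WT and from 35.5 to 2.37 in KO between T00 and T24. Bmp6, the ligand through which liver senses iron, rose from 0.882 to 12.3 in KO, and its WT values are not described here. For a time course that differs between genotypes limma called 0 of the 21 genes (1.75% of all genes). Socs3, a feedback inhibitor induced by STAT3, peaked at T06 with 90.5 ± 24.3 FPKM in WT and 39.7 ± 7.87 in KO (SD, n = 3). Over the 4 times Socs3 was lower in KO by 1.33 on the log2 scale (adjusted p = 6.04e-07), and Hfe2 was higher by 0.86 (adjusted p = 0.000409, and 0.0674 with 1 mean per genotype and replicate number). Of this list 2 were higher and 3 lower in KO over the 4 times, where 18.7% of all genes were called.

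For iron uptake and export, Tfrc rose and Slc40a1 first fell. Tfrc in WT was 4.94, 5.37 and 9.48 FPKM at T00, 9.17, 12.9 and 15.5 at T06, 11.7, 15.0 and 10.2 at T12, and 8.55, 9.09 and 11 at T24. In KO it was 6.31, 7.84 and 9.64, then 8.06, 15.5 and 12, then 12.6, 13.3 and 14.4, and at T24 15.1, 24.1 and 19.5. The highest WT samples were at T06 and T12, and the 2 highest KO samples were at T24, where all 3 lay above WT. The WT rise was 1.8-fold at T06 (0.85 ± 0.25) and the KO rise 2.29-fold at T24 (1.19). Over the 3 times the adjusted p was 0.016 in WT and 0.00243 in KO. At T24 KO exceeded WT 1.93-fold (0.95 ± 0.25, adjusted p = 0.0139), a call lost without WT replicate 1 or 2 or KO replicate 2 or 3 (adjusted p 0.0529 to 0.0722). Red cell precursors are known for high Tfrc, and the summed red cell genes were highest at T06 in both genotypes by their median. In WT the sum was 421.5 to 861.5 FPKM at T00, 5243.5 to 6683 at T06, 800 to 1340.6 at T12 and 632.4 to 1306.6 at T24. In KO it was 256.9 to 322.6, then 1665 to 8563.5, then 424.9 to 4126.6, and at T24 714.3 to 2179.4. Their part in the Tfrc values was not tested.

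Slc40a1, the only known cellular iron exporter, was 36.7, 37.7 and 36.9 FPKM in WT at T00, 24.2, 10.6 and 21.4 at T06, 12.5, 20.6 and 14.7 at T12, and 29.0, 21.6 and 33.8 at T24. Its KO values were 21.2, 24.0 and 19.7, then 9.15, 16.9 and 9.08, then 19.9, 14.5 and 15.2, and at T24 29.6, 23.1 and 28.9. Both genotypes dipped and returned, and only at T00 did they not overlap, with KO lower. The dip was -1.2 ± 0.26 at T12 in WT and -0.88 at T06 in KO (adjusted p = 0.00212 and 0.00314 over the 3 times). At T24 the differences from T00 were -0.41 (adjusted p = 0.188) and 0.31 (adjusted p = 0.307).

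Transferrin was the most abundant of the 10 at T00 and fell. Trf in WT was 14918, 13497 and 14215 FPKM at T00, 7570.1, 6924 and 9288 at T06, 9867, 7643 and 11242 at T12, and 6857, 5583 and 6928 at T24. In KO it was 10238, 7757 and 9700.0, then 5776, 6780.5 and 7076, then 7984, 6603 and 6997, and at T24 4755, 2364 and 6126. KO started below WT, and every T24 sample of either genotype was below every T00 sample of that genotype. The fall to T24 was -1.14 ± 0.25 in WT and -1.16 in KO (adjusted p = 0.00405 and 0.00331 over the 3 times). The hepatocyte sum given above fell over the same interval, and its part in the Trf values was not tested.

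Fth1 rose through the course in both genotypes. It was 1168, 1417 and 1455 FPKM in WT at T00, 2365, 1974 and 2283 at T06, 2482, 3447 and 2894 at T12, and 3796, 5565 and 4450.4 at T24, and in KO 1541, 1415 and 1553, then 2505, 2058 and 1959.6, then 2522, 3126 and 2018, and at T24 4566, 4013 and 3889.8. The genotypes overlapped at all 4 times. The rise to T24 was 3.39-fold in WT (1.76 ± 0.18) and 2.76-fold in KO (1.46). Over the 3 times the adjusted p was 1.5e-06 in WT and 9.61e-06 in KO. Ftl1 ranged from 911 to 1509.9 FPKM over all 24 samples, lay lower in KO without overlap at T06 and T24, and was not called for time in either genotype (adjusted p = 0.31 and 0.645). The ratio of heavy to light chain FPKM ran from 1.11 to 4.38 in WT and from 1.45 to 4.41 in KO. Of the 50-base positions in Ftl1 transcripts 58.4% are shared with other genes, 47.3% with Ftl1-ps1, which was listed at 10 to 19.7 FPKM in these samples.

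Counted together, 7 of the 10 genes changed over the short course in WT, where 64.4% of all tested genes were called, and 9 of 10 in KO, where 72.2% were. At T06, T12 and T24 against T00, 7, 6 and 5 were called in WT (46.6%, 50.5% and 61.2% of all genes) and 5, 5 and 7 in KO (44%, 55.3% and 67.6%). The shares of the 10 ran on both sides of those of all genes. Each gene was then taken at the time of its own largest difference from T00, up or down. The median of these differences over the 10 genes was 0.68 in WT and 0.66 in KO, against -0.13 and -0.19 over all tested genes. Some of these calls rested on 1 replicate. At T06 in WT, Tfrc, Trf and Slc40a1 were lost without WT replicate 2 (adjusted p 0.108, 0.0788 and 0.0507) and Trf also without WT replicate 1 (0.091). At T12 the KO call of Tfrc was lost without any 1 of the KO replicates (0.0603 to 0.0744).

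Averaged over the 4 times, 4 of the 10 genes differed between genotypes, where 18.7% of all genes tested did. Besides Hamp2 these were Slc39a14 (-0.83 ± 0.23, adjusted p = 0.017), Trf (-0.49 ± 0.13, adjusted p = 0.0106) and Ftl1 (-0.26 ± 0.08, adjusted p = 0.0216), all lower in KO. With 1 mean per genotype and replicate number, 3 against 3, these 3 were not called (adjusted p 0.0979, 0.187 and 0.305), and each was also lost when certain single replicates were left out. Slc39a14 was lost without WT replicate 2 or 3 or KO replicate 3 (0.0652 to 0.118), Trf without WT replicate 1 or 3 (0.0601 and 0.103), and Ftl1 without WT replicate 2 or 3 or KO replicate 2 or 3 (0.0719 to 0.181). Hamp, Mt1 and Mt2 were not called over the 4 times (adjusted p = 0.721, 0.244 and 0.537).

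At T00 Hamp2 was the 1 gene of the 10 called between genotypes (9.66-fold, 3.27, adjusted p = 0.0108), where 4.45% of all genes were. Mt1 and Mt2 had KO differences of 1.26 and 1.49 on the log2 scale and were not called (adjusted p = 0.133 and 0.0737), but both were called without KO replicate 3, the KO sample with values close to WT (1.88, adjusted p = 0.0242, and 2.2, adjusted p = 0.00559). At T06 limma called 0 of the 10 (1.67% of all genes), with 2 of them at an unadjusted p below 0.05, Hamp2 (2.87, adjusted p = 0.0512) and Slc40a1. With a replicate block in the fit, Hamp2 was called at T06. At T12 the 1 call was Hamp2 (3.12, adjusted p = 0.0259, 2.4% of all genes). At T24 there were 4 (17.9% of all genes): Slc39a14 and Tfrc as given above, Hamp2 (5.72-fold, 2.52, adjusted p = 0.0232) and Mt1 (2.84-fold lower, -1.51 ± 0.44, adjusted p = 0.0257). The T24 call of Mt1 was lost without WT replicate 1, 2 or 3 (adjusted p 0.11, 0.102 and 0.0805) and without KO replicate 2 (-0.99, adjusted p = 0.126). Mt2 at T24 had -1.17 (adjusted p = 0.0801) and was called without KO replicate 1 (adjusted p = 0.0395). Hamp2 at single times was also fragile: it was lost without WT replicate 1 or 3 or KO replicate 2 or 3 at T00 (0.0543 to 0.104) and T24 (0.069 to 0.14), and without any replicate except KO replicate 1 at T12 (0.0508 to 0.136).

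Whether the time course itself differed between genotypes was tested as an interaction. limma called 0 of the 10 genes (1.75% of all genes), and 4 had an unadjusted p below 0.05. Mt1 and Mt2 came closest: their rise in KO differed from that in WT by -2.76 and -2.66 on the log2 scale at the time of the largest difference (adjusted p = 0.0771 and 0.0856). Tfrc (0.68, adjusted p = 0.261) and Slc39a14 (-1.73, adjusted p = 0.273) were the other two. Mt2 was called without KO replicate 3 (adjusted p = 0.0418) and Slc39a14 without KO replicate 1 (adjusted p = 0.0317).

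Of the wider list of iron genes, 10 rose and 9 fell in WT among 24 tested, and 10 rose and 11 fell in KO, against 64.4% and 72.2% of all genes called. Hmox1, which frees iron from heme, rose from 8.69 ± 0.826 FPKM at T00 to 570.1 ± 129.6 at T24 in WT and from 6.43 ± 0.677 to 1425.7 ± 119.9 in KO (SD, n = 3). Slc48a1, a heme transporter, rose from 12.5 to 52.8 in WT and from 12 to 67.9 in KO. Lcn2, which binds bacterial iron carriers, rose from 32.4 to 2209.9 in WT. Steap2 and Heph, a metal reductase and an iron oxidase, rose in KO from 0.668 to 13.7 and from 0.27 to 6.69. Where values of 1 genotype are given, the other is not described here. For a time course that differs between genotypes limma called 1 of the 24, Hmox1 (1.75% of all genes), a fragile call described below. Between genotypes over the 4 times 2 of the 24 were higher and 4 lower in KO, where 18.7% of all genes were called, and the ferroxidase ceruloplasmin (Cp) was the one with the smallest p (0.81, adjusted p = 6.45e-05). At T24 5 were higher and 3 lower, where 17.9% of all genes were called.

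In the slices, which had been out of the animal for days, the metallothioneins and Fth1 stayed at high levels, and both hepcidins were higher in KO. Hamp ran from 45.1 through a median of 260.3 to 994.6 FPKM in WT and from 156.7 through 654.5 to 2473.9 in KO. Hamp2 ran from 1.51 through 6.95 to 37.6 in WT and from 8.21 through 45.2 to 258.1 in KO. The ranges of the genotypes overlapped for both, yet KO was above WT at 24 of 24 time points for Hamp2 and at 19 of 24 for Hamp. The differences were 1.31 ± 0.26 for Hamp, 2.49-fold (adjusted p = 1.45e-05), and 2.61 ± 0.25 for Hamp2, 6.1-fold (adjusted p = 1.8e-12). The ratio of Hamp2 to Hamp had a median of 0.0296 in WT and 0.0751 in KO slices, against 0.0166 and 0.205 in the short course. Without the 6 libraries that correlated least with the rest the differences were 1.01 and 2.35, and both were still called. Hamp and Hamp2 were the 2 of the 10 genes called for genotype in slices, where 5.22% of all genes were. Genes of the hepatocyte list also stood higher in KO slices for 2 of 8, Cyp2e1 and Ttr, and 3 of 5 red cell genes were higher. Lower in KO were 7 of 8 macrophage genes and 4 of 7 fibroblast and stellate cell genes. Their part in the hepcidin values and in those of the other 8 genes was not tested.

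The other 8 genes were lower in KO slices by less than the size limit. Mt1 had a mean of 4711 ± 1835 FPKM in WT and 2858 ± 951 in KO (SD, n = 24) and was lower in KO at 20 of 24 time points (-0.69 ± 0.11, adjusted p = 7.79e-07). Mt2 was lower at 21 of 24 (-0.91 ± 0.12, adjusted p = 8.26e-09), and Slc39a14 at 21 of 24 with 28.0 ± 11.9 against 16.2 ± 11.3 FPKM (-0.9 ± 0.16, adjusted p = 3.63e-06). Slc40a1 (-0.74 ± 0.14) and Trf (-0.65 ± 0.23) were lower at 19 and 18 of 24. Fth1 had 14042 ± 3209.9 against 9089.5 ± 1702 FPKM and was lower at 23 of 24 (-0.62 ± 0.08), as was Ftl1 at 23 of 24 (-0.47). The direction was therefore shared by the metal and storage genes, opposite to the hepcidins. Over all genes the median difference in slices was -0.34, and median-of-ratios rescaling of the libraries brought it to 0 and moved the share of higher calls among all calls from 22.6% to 59.3%. After rescaling Mt1 was at -0.28 (adjusted p = 0.0377), Mt2 at -0.5, Slc39a14 at -0.51, Slc40a1 at -0.35 and Fth1 at -0.21 (adjusted p = 0.0473), Trf and Ftl1 no longer passed (adjusted p = 0.409 and 0.582), Tfrc turned from -0.2 to 0.2 (adjusted p = 0.0223), and Hamp and Hamp2 stood at 1.72 and 2.98.

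**Figure D3:**
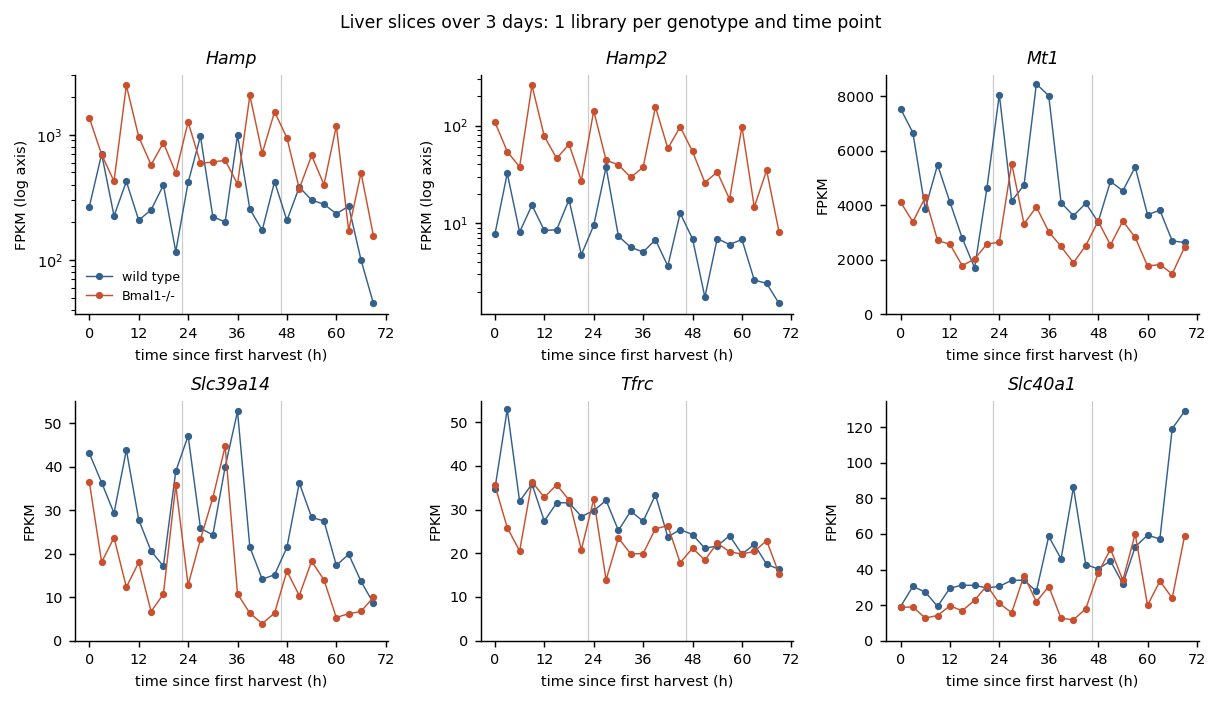
FPKM (vertical axis, logarithmic for Hamp and Hamp2) against hours since the first harvest for 6 genes in liver slices, 1 library per genotype and time point, WT in blue and Bmal1-/- in orange, with grey lines between days. The orange Hamp2 line stays above the blue one at all 24 time points, Mt1 is mostly lower in orange, and Slc40a1 climbs while Tfrc declines in both genotypes.

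Across the 3 days in culture the importer and the exporter of iron moved in opposite directions. Slc40a1 had day means of 27.2, 45 and 66.9 FPKM in WT and 19.3, 20.9 and 40.0 in KO, while Tfrc had 34.3, 28.3 and 20.8 in WT and 30, 22.4 and 20.1 in KO. The trends of Slc40a1 were 0.58 ± 0.09 and 0.49 ± 0.12 on the log2 scale per 24 h (adjusted p = 0.000269 and 0.0235), and those of Tfrc -0.34 ± 0.05 and -0.3 ± 0.07 (adjusted p = 0.000108 and 0.015). Hamp2 fell in WT (-0.65, adjusted p = 0.015), and in KO its -0.69 was not called (adjusted p = 0.0833). Slc39a14 fell in WT (-0.33, adjusted p = 0.0363). Cell type markers had trends in the same libraries. In WT 8 of 8 macrophage genes rose (median 0.88 per 24 h) and 4 of 8 fibroblast and stellate cell genes, while 5 of 8 hepatocyte genes (median -0.71) and 4 of 5 red cell genes (median -1.24) fell. In KO 1 of 7 macrophage genes rose, and 3 of 8 hepatocyte and 4 of 5 red cell genes fell. Macrophages are known to express Slc40a1 as well, and the part of these markers in the trends was not tested. In all, 4 of the 10 genes had a called trend in WT, against 20.1% of all genes, and 2 in KO, against 5.75%. Without day 3 limma called 0 trends of the 10 in either genotype, and without day 1 it called 2 in WT and 0 in KO.

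A 24 h rhythm was found for 0 of the 10 genes in WT slices (1.98% of all genes), although Mt1, Mt2, Trf, Slc40a1 and Slc39a14 had an unadjusted p below 0.05. With day as a factor in place of linear time, 3 of the 10 were called in WT. In KO slices 3 of the 10 were called, where 11.2% of all genes were: Mt1 with an amplitude of 0.47 ± 0.09 (adjusted p = 0.0145), Mt2 with 0.63 ± 0.11 (adjusted p = 0.0128) and Slc39a14 with 0.71 ± 0.19 (adjusted p = 0.0415). Their peaks fell at 4.32, 4.04 and 4.33 h after the first harvest and each day after. These calls were not stable: without day 2, without day 3 or without the 6 low-correlation libraries limma called 0 of the 3 (adjusted p 0.264 to 0.3 without day 2, 0.306 to 0.323 without day 3 and 0.0536 to 0.171 without the libraries). Mt1 was also lost without day 1 (adjusted p = 0.0633) and without the filter on low values (0.0517). A test of the difference between the genotypes' rhythms called 0 of the 10 (4.13% of all genes), with 2 at an unadjusted p below 0.05, Mt2 (adjusted p = 0.191) and Slc40a1 (adjusted p = 0.103). A rhythm of the metallothioneins that is particular to KO was thus not shown.

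Of the lists, where 5.22% of all genes were called, 0 zinc genes were higher and 1 lower in KO slices among 19 tested, 0 and 5 among 23 iron genes, and 0 and 0 among 21 hepcidin control genes (limma, with the size limit). Id1, a target of BMP signalling, had the smallest p of the last list and was lower by 0.75 (adjusted p = 4.14e-10), below the size limit. Aco1, which encodes iron regulatory protein 1, was lower by 1.06 (31 against 14 FPKM) and Steap3, an iron reductase, by 1.08. After rescaling they stood at -0.67 and -0.78, below the size limit.

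In the fibroblasts the pair of metallothioneins split by genotype. Mt1 ran from 135.1 through a median of 152 to 188 FPKM in WT and from 252.4 through 325 to 413.9 in KO. Mt2 ran from 155.8 through 178 to 235.1 in WT and from 83.5 through 110.3 to 156.1 in KO. Mt1 was higher in KO with no overlap, whereas Mt2 was lower in KO at 24 of 24 time points, with ranges that just overlapped. The differences were 1.1 ± 0.04 for Mt1, 2.14-fold (adjusted p = 3.31e-28), and -0.68 ± 0.05 for Mt2 (adjusted p = 9.67e-16), below the size limit. The ratio of Mt1 to Mt2 was 0.74 to 0.99 in WT and 2.53 to 3.14 in KO, and neither reached the other's range. In slices the ratio had medians of 1.14 and 1.28. Of the 50-base positions in Mt2 transcripts 45.8% are shared with the antisense gene Gm45774, which was not in the tables, and Mt1 shared none.

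Iron uptake and transport genes differed as well. Tfrc ran from 9.23 through 14.6 to 28.5 FPKM in WT and from 2.07 through 2.74 to 6.22 in KO, with no overlap and a 3.74-fold lower level in KO (-1.9 ± 0.11, adjusted p = 2.33e-21). The deposited lower bound of Tfrc was 0 in 15 of the 24 WT libraries, whose values were 12.9 to 28.5 FPKM, and in 5 of the 24 KO libraries. The values with a lower bound above 0 ran from 9.23 to 11.8 FPKM in WT (9 libraries) and from 2.07 to 3.3 in KO (19 libraries), again without overlap. Trf was at most 0.532 FPKM in WT and 90.9 to 118.4 in KO. Gm20425, a gene that shares 58.5% of the 50-base positions of Trf, was listed at 0 in every WT library and at 4.13 to 11.7 FPKM in KO. Slc40a1 (means 5.72 and 6.24), Slc39a14 (39.9 and 38.8) and Fth1 (2739.8 and 2746.3) were not called (adjusted p = 0.297, 0.407 and 0.993). Ftl1 was higher in KO by 0.3 ± 0.03 (367.8 ± 11.9 against 455.9 ± 51.3 FPKM, adjusted p = 2.01e-13), below the size limit. Mt1, Tfrc and Trf were called among 8 tested, where 16% of all genes were. Trf passed the filter on low values only through the KO libraries, so its call was set by that filter, and of the other 7 Mt1 and Tfrc were called. Hamp was at most 0.887 FPKM and Hamp2 was listed at 0 in all 48 libraries, so neither was tested.

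**Figure D4:**
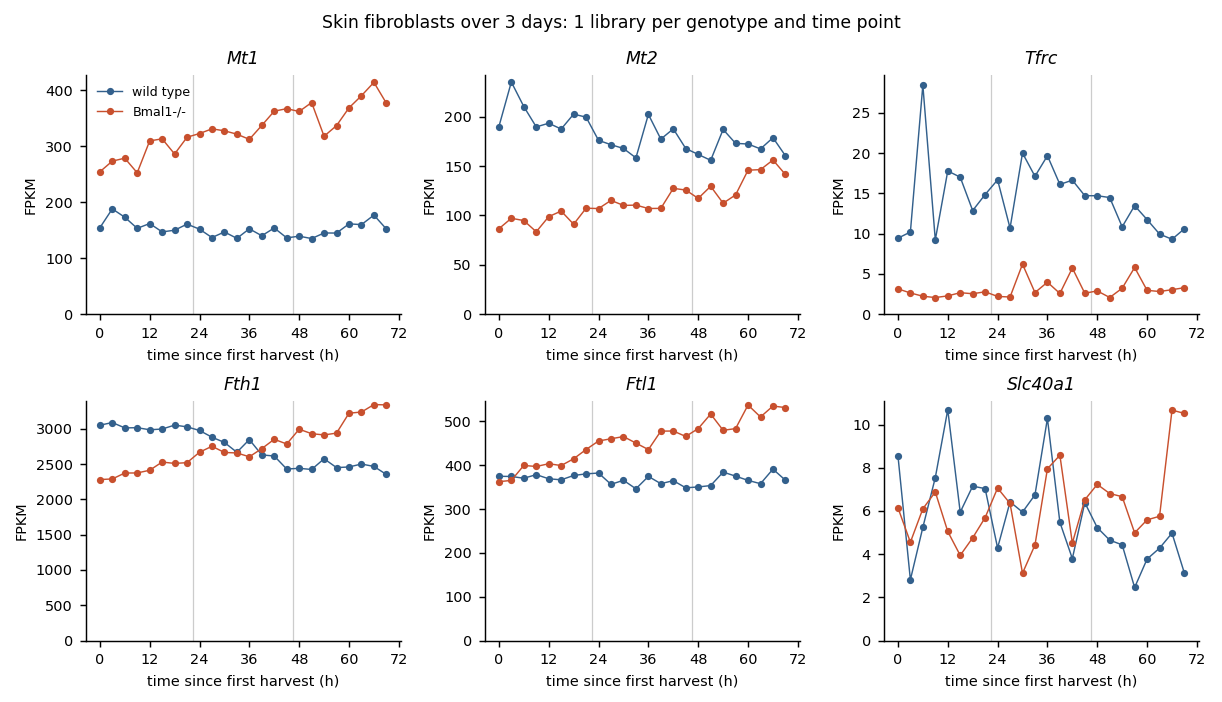
FPKM (vertical axis) against hours since the first harvest for 6 genes in skin fibroblasts, 1 library per genotype and time point, WT in blue and Bmal1-/- in orange, with grey lines between days. Mt1 is higher and Mt2 and Tfrc lower in orange at all 24 time points, and the Fth1 lines cross on day 2.

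Fth1 had the same mean in both genotypes and opposite courses. Its day means were 3029.0, 2731.8 and 2458.7 FPKM in WT and 2411.3, 2712.8 and 3114.8 in KO. WT fell by 0.15 ± 0.01 on the log2 scale per 24 h (adjusted p = 1.82e-09) and KO rose by 0.18 ± 0.01 (adjusted p = 2.61e-12), so the lines crossed on day 2. The difference between the trends was 0.33 ± 0.02 (adjusted p = 8.32e-21), and it was called in each of the 6 alternatives run for it. This test was added after the trends had been seen. It also called Mt2 (0.36 ± 0.04, adjusted p = 1.9e-10), Mt1 (0.22 ± 0.04, adjusted p = 5.69e-06), Ftl1 (0.19 ± 0.02, adjusted p = 1.64e-11) and Slc40a1 (0.46 ± 0.12, adjusted p = 0.00401), each upward in KO relative to WT, 5 of 8 tested against 26.4% of all genes. Mt1 was lost without day 1 (0.07, adjusted p = 0.534), and Slc40a1 without day 1 (0.64, adjusted p = 0.0951) or day 3 (0.16, adjusted p = 0.769). Within WT 4 of the 7 tested had a called trend, all downward (31.1% of all genes): Fth1, Mt2 (-0.12), Slc40a1 (-0.29) and Slc39a14 (-0.11). Without day 1 or without day 3 there were 2. Within KO 4 of 8 did, all upward (26.3% of all genes): Fth1, Ftl1 (0.18), Mt1 (0.18) and Mt2 (0.24). Of the 50-base positions of Fth1 1.59% are shared, with the processed pseudogene Gm6977. That gene was itself listed at 427.3 to 603.2 FPKM in WT and 378.7 to 597 in KO fibroblasts. In slices it was listed at 1177.5 to 3108.6 in WT and 892.9 to 1914.7 in KO.

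No 24 h rhythm of the 10 genes was called in the fibroblasts with linear time in the fit, while with day as a factor Fth1 was called in KO. limma called 0 of 7 tested in WT (0.0341% of all genes) and 0 of 8 in KO (0% of all genes), with 0 at an unadjusted p below 0.05 in either. Among the lists, where 16% of all genes were called for genotype, 0 zinc genes were higher and 2 lower in KO of 16 tested, 3 and 6 of 21 iron genes, and 2 and 3 of 17 hepcidin control genes. Slc39a8, a relative of Slc39a14 that carries zinc, was lower (4.95 against 1.04 FPKM), as was the metal reductase Steap4 (42.2 against 3.35). Cp was higher (123 against 369.9 FPKM), and so were the BMP targets Id1 (1.9 against 27.6) and Atoh8 (1.26 against 13.7). The sum of 5 fibroblast genes was 1124.6 to 1548 FPKM in WT and 3011 to 4880.1 in KO. Of the 3 of them tested, Dcn was higher in KO (1045.8 against 3817 FPKM) and Acta2 lower (290.2 against 140.2). Bile duct markers summed to medians of 700.8 in WT and 113.3 in KO, with Spp1 lower (692.5 against 15.4) and Krt19 higher (7.6 against 79.5), and endothelial markers to 10.1 and 1.41. The part of these in the Tfrc, Trf and Mt1 values was not tested.

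**Figure D5:**
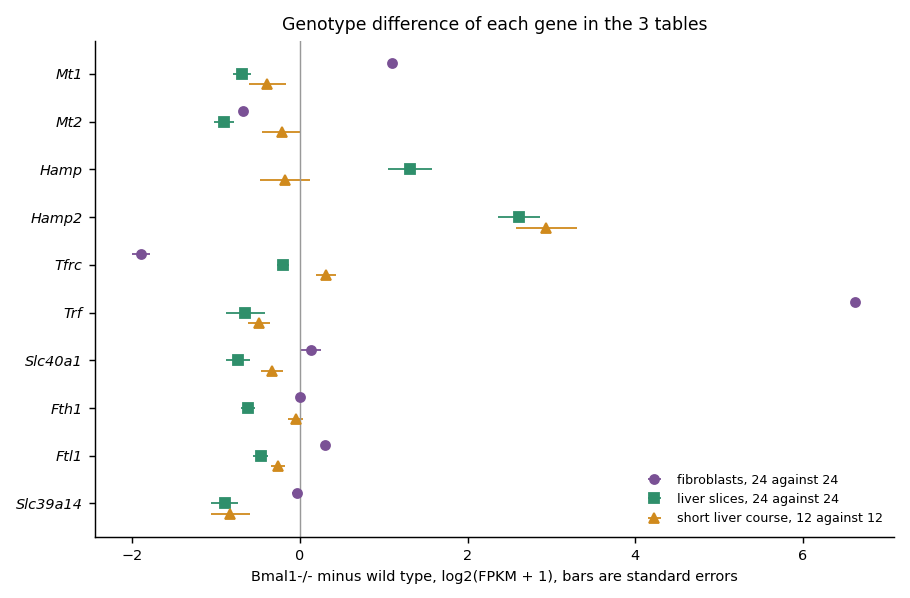
Difference between Bmal1-/- and wild type on the log2(FPKM + 1) scale (horizontal axis) for the 10 genes in fibroblasts, liver slices and the short liver course, with standard errors as bars. Hamp2 lies at 2.61 in slices and 2.94 in the short course, Trf at 6.62 and Tfrc at -1.9 in fibroblasts, and Mt1 at 1.1 in fibroblasts and -0.69 in slices.

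Set side by side, the genotype difference of Hamp2 was 2.61 in slices and 2.94 in the short course, and that of Slc39a14 was -0.9 and -0.83. Trf was at -0.65 in slices, -0.49 in the short course and 6.62 in fibroblasts, where it passed the filter on low values only through KO. Tfrc was -1.9 in fibroblasts, -0.2 in slices and 0.31 in the short course, and Mt1 1.1, -0.69 and -0.39. Of the genes named here only Hamp2 was called in slices, and Trf no longer passed on adjusted p after rescaling. In the short course Tfrc and Mt1 were not called. The calls of Slc39a14 and Trf there were lost with 1 mean per genotype and replicate number. The tables were normalised separately, and differences between them were not tested.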

How the data were processed

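The authors deposited 3 tables of FPKM per gene; per the submitters' processing notes they used TopHat2 2.1.0, Cuffdiff and build GRCm38, and the sources used here do not give the annotation release, the scaling between libraries or the use of strand. Per the labels' protocols, poly(A) RNA went into a stranded kit and was read as single reads of 50 bases. The runs of a sample share 1 deposited column (3 runs per long-course time point, 2 per short-course sample), and 0 columns of samples were left unused. Of the fibroblast genes, 118 with a failed or over-deep estimate (447 and 241 values) were removed, and the 10 were not among them.

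From these values log2(FPKM + 1) was computed, genes averaging at least 1 FPKM over the columns of a fit were kept, and limma 3.58.1 in R 4.3.3 was fitted across all of them with a variance trend and Benjamini-Hochberg adjustment. Genotype in the long courses was fitted with linear time and a 24 h cosine and sine, rhythm as a 2-degree-of-freedom test of that wave within a genotype, trend as log2 per 24 h. The short course had 1 mean per genotype and time over 24 columns. Between libraries, Pearson's r of these values was 0.803 to 0.9375 in fibroblasts, 0.721 to 0.9509 in slices and 0.632 to 0.9678 in the short course. FPKM keeps no depth, and the bounds the authors deposited beside each fibroblast FPKM value entered no test.

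The 10 genes and the lists were chosen with earlier results of these data known. All 10 are described in every comparison, with up to 4 genes per list by smallest adjusted p, and 5 genes of like pattern for Mt1, Hamp and Tfrc. The lists cover zinc, iron, hepcidin control, glucocorticoid response, acute phase and hypoxia, with cell type markers. Alternatives were a pseudocount of 0.1, no filter, median-of-ratios rescaling, leaving out days, replicates or low-correlation libraries, other time terms, a replicate block and 1 mean per replicate number. The fits were tested on simulated data. Promoters are RefSeq windows of GRCm38.p6.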

Additional observations from a re-analysis of the deposited data

Results flagged for a closer look

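In the fibroblasts the test of the difference between the genotypes' trends per 24 h, added after the trends were seen, passed for 5 of the 8 genes tested, against 26.4% of all genes, each upward in KO relative to WT. On the log2 scale the differences were 0.33 for Fth1, 0.36 for Mt2, 0.22 for Mt1, 0.19 for Ftl1 and 0.46 for Slc40a1. In the short course 1 of 24 iron genes, 1 of 19 zinc genes and 1 of 8 macrophage genes tested differed between genotypes in their change over time. Of all genes 1.75% did. Each of the other lists, such as that of 21 hepcidin control genes, had 0 calls. These 3 genes are named because they were called. Hmox1 rose by 1.73 more in KO at the time of the largest difference (adjusted p = 0.016), and it was not called without any 1 of the WT replicates or KO replicate 3 (adjusted p 0.0712 to 0.165). Slc30a10 changed by -1.55 relative to WT (adjusted p = 0.0477), and it was not called without any 1 of the WT replicates or KO replicate 2 or 3 (adjusted p 0.0994 to 0.284), with a pseudocount of 0.1 (0.0585) or without the filter (0.0875). Cd163, a macrophage marker, changed by -1.11 relative to WT (adjusted p = 0.0289), and it was not called without any 1 of the replicates (adjusted p 0.0512 to 0.259) or without the filter (0.0552).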

How the results depend on the processing

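For the 10 genes and the list genes named, 2395 of the recomputed values kept their direction and their side of the threshold, 132 lost the call, 52 gained it and 38 changed sign. In fibroblasts 5 genes were called for genotype with no size limit; without day 3 the differences of Slc40a1 and Fth1 were -0.14 and -0.17, and Slc39a14 was at 0.03 rescaled and 0.01 without day 1. The WT trend was called for 2 genes without day 1 and 2 without day 3, with Mt1 at 0.06 and Ftl1 at 0.02 without day 1 and Tfrc at 0.22 without day 3. With day as a factor 1 KO rhythm was called (Fth1). The KO trend of Slc39a14 was 0.08 without day 3. Of the trend differences 3 were called without day 1, where Trf was at -0.03.

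In slices 10 genes passed for genotype with no size limit, and Tfrc was at 0.2 rescaled. With day as a factor 3 WT rhythms were called. WT trends numbered 2 without day 1, 0 without day 3 and 2 without the low-correlation libraries; without day 3 Mt1 was at 0.21, Mt2 at 0.11, Hamp at 0.21 and Trf at 0.26, and without day 1 Fth1 was at -0.07. KO rhythms numbered 1 with no filter, 0 without day 2, 0 without day 3 and 0 without the low-correlation libraries. KO trends numbered 0 without day 1, 0 without day 3 and 4 without those libraries, with Mt1 at 0.08 without day 3 and Fth1 at -0.1 without day 1. Without day 1 the difference of rhythms was called for 1 gene, Slc40a1.

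In the short course 2 genes were called for genotype with no filter and 1 with 1 mean per genotype and number, 1 at T06 after rescaling, and 0 at T12 with no filter. Slc40a1 at T24 was at 0.01 after rescaling. Leaving out 1 replicate at a time gave 2 to 5 calls for genotype, 0 to 2 at T00, 0 to 1 at T06, 0 to 1 at T12, 1 to 5 at T24, 0 to 1 for genotype by time, 4 to 7 at T06 in WT and 3 to 5 at T06 in KO. The differences that then changed sign, none of them called, ran from -0.66 to 0.17 for Hamp and -0.13 to 0.01 for Fth1 over the 4 times. At T06 they ran from -0.05 to 0.9 for Hamp, -0.29 to 0.14 for Tfrc and -0.13 to 0.05 for Fth1, at T12 from -0.09 to 0.25 for Slc40a1, and at T24 from -0.2 to 0.11 for Slc40a1 and -0.26 to 0.01 for Fth1. Against T00 they ran from -0.16 to 0.09 for Hamp and -0.14 to 0.1 for Ftl1 at T06 in WT, -0.04 to 0.85 for Hamp at T24 in WT, and -0.05 to 0.17 for Ftl1 at T12 in KO. The cause of these changes was not tested.

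Across all genes, samples with the same replicate number deviated together little: 6 of 36 pairs within a genotype and 0 of 12 across genotypes correlated above 0.1. This does not settle whether a number marks 1 animal. For single genes the order of the numbers could repeat. KO Hamp2 was lowest in replicate 1 and highest in replicate 3 at all 4 times. With a replicate block 1 gene, Hamp2, was called at T06 (adjusted p = 0.00479), and no other count moved by over 1.5 times.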

Other observations

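The genes whose log2(FPKM + 1) values tracked 3 of the genes most closely are given as a description, since all values of a table share libraries and genotype. Over the 24 short-course samples Mt1 ran closest to Snx18 (r = 0.957), Npy (0.955), Sptlc2 (0.954), Gadd45b (0.952) and Dot1l (0.952). Hamp ran closest to Leap2 (0.806), which encodes another liver-made antimicrobial peptide, then to Gm27216 (0.778), Tmem134 (0.778), Laptm4a (0.761) and Vnn1 (0.76). Tfrc ran closest to Gm5913 (0.861), G3bp1 (0.858), Gtf2h1 (0.838), Gm10557 (0.838) and Tsr2 (0.828).

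Over the 48 slice libraries the 5 genes closest to Hamp were Serpina1b (0.936), Hrg (0.931), Azgp1 (0.923), Asgr1 (0.915) and Masp2 (0.91), most of which encode proteins that hepatocytes secrete or carry. Tfrc in slices ran with Rabggtb (0.841), Npm1 (0.839), Noc2l (0.838), Cebpz (0.825) and Mrto4 (0.819), and in fibroblasts with Bysl (0.95), Srm (0.948), Ace (0.947), Oaf (0.946) and Riok3 (0.946). Several of these, such as Npm1, Noc2l, Mrto4 and Bysl, are known for ribosome assembly. Mt1 in slices ran with Etfbkmt (0.898), St3gal1 (0.882), Mrap (0.879), Mpp6 (0.864) and Galk1 (0.859), and in fibroblasts, where the genotype split sets the values apart, with Cryab (0.989), Kremen1 (0.986), Ltbp3 (0.985), Kif1c (0.984) and Marcks (0.984).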
